A study of Prunus persica with 21 samples.

Results

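GRXC9 (PRUPE_4G053500, glutaredoxin-C9) and the DUF1442 gene (PRUPE_8G007800, an ankyrin repeat/KH domain protein) were followed through the response of peach leaves to the peptides PpPep1 and PpPep2. They are 2 of the 27107 genes in the count table, and both passed the filter on low counts with 18586 genes in all. Both were chosen because their levels were high 24 h after treatment, so the 24 h values describe that choice and were not tested. Juvenile plants of *Prunus persica* var. Big Top were sprayed on their youngest fully expanded leaves with PpPep1 at 100 nM or PpPep2 at 1000 nM. Leaf blades with the central vein removed were sampled after 1, 24 and 48 h, beside leaves taken at time zero (t0), which the series design calls untreated and the sample label calls mock. The 7 groups had 3 biological replicates each. No untreated leaves taken at 1, 24 or 48 h were analysed here, so the peptide and the time since t0 cannot be told apart. The study measured a set of genes by quantitative PCR in mock plants at these times and detected no significant changes. Those measurements were not used here.

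Plant elicitor peptides (Peps) are released from precursor proteins on wounding or attack, bind receptor kinases of the PEPR family at the cell surface, and set off responses that resemble those to microbial patterns. Glutaredoxins are small enzymes that reduce disulfide bonds with the help of glutathione. In Arabidopsis, GRXC9 belongs to the CC-type glutaredoxins of land plants; it is induced by salicylic acid, binds TGA transcription factors and, when overproduced, represses defence genes of the jasmonate and ethylene pathway. The names of both peach genes come from the study's network table, which pairs peach genes with Arabidopsis relatives. The DUF1442 gene is named there only for its domain, and no role is given for it here. No leaf marker check was made, because the identifiers were not paired with gene descriptions.

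Each library held between 33231519 and 59317510 counts, with a median of 43773982, and between 20339 and 20980 genes with at least 1 count. The names of the count columns were set against the study's mapping statistics, in which each library has its number of read pairs assigned to a single gene and its number of genes holding 25% of the reads. By these, 12 of 21 columns matched the library they are named after, and 0 of the other 9 did, with totals between 0.635 and 1.29 of the read pairs. The 9 columns were therefore read as the libraries they matched: those headed PpPep1 48 h as PpPep2 1 h, those headed PpPep2 1 h as PpPep2 24 h, and those headed PpPep2 24 h as PpPep1 48 h. The sample codes beside the names in the column headers go with the names as headed, so the reading rests on the totals and on the number of genes holding 25% of the reads. Under this reading all 21 columns matched, with totals between 0.963 and 0.982 of the read pairs. Sequencing runs also differed between groups. The t0 libraries shared their flowcells with PpPep1 1 h replicate 1 and all PpPep2 24 h libraries, 7 libraries in all, another 7 were run on a different flowcell, and PpPep2 1 h replicate 1 was run on both sets. The 6 libraries of 48 h were run on flowcells of their own, and their library numbers belong to another sequence of numbers in the mapping statistics, so a difference between 48 h and any other time cannot be told apart from the sequencing of these libraries.

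GRXC9 was high at 1 h as well as at 24 h and low at 48 h. Levels are given as CPM, counts scaled to a common library size with factors from the trimmed mean of M values (TMM), and they were not compared between the 2 genes because no gene lengths were at hand. In the t0 libraries GRXC9 was at 2.25, 2.92 and 3.27 CPM. At 1 h it was at 6.22, 5.59 and 6.30 CPM with PpPep1 and at 8.38, 3.49 and 4.43 CPM with PpPep2. Every 1 h library thus lay above every t0 library, but PpPep2 replicate 1 stood far above the other two of its group. At 24 h the values were 6.79, 6.03 and 4.66 CPM with PpPep1 and 3.97, 6.30 and 5.45 CPM with PpPep2. The 48 h values were 1.97, 1.35 and 1.46 CPM with PpPep1 and 2.16, 1.73 and 1.95 CPM with PpPep2, all below the lowest t0 library.

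Ordered by mean, GRXC9 ran from 1.59 ± 0.33 CPM (SD, n = 3) in PpPep1 48 h through 1.95 ± 0.21 in PpPep2 48 h and 2.81 ± 0.52 in t0 to 5.24 ± 1.18 in PpPep2 24 h, 5.43 ± 2.60 in PpPep2 1 h, 5.82 ± 1.08 in PpPep1 24 h and 6.03 ± 0.39 in PpPep1 1 h. The 2 groups of 48 h overlapped each other, and each neighbour among the 4 groups of 1 h and 24 h overlapped the next. The t0 libraries overlapped neither neighbour, although the gap to PpPep2 48 h was narrow. These levels rest on 48 to 382 counts per library. The counting error alone would give a coefficient of variation (CV) between 6.04% and 13.3% within a group. The observed CV was 6.43% in PpPep1 1 h, at the counting error, and 47.8% in PpPep2 1 h, far above the 6.97% that counting would give there.

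The DUF1442 gene had another course: low at 1 h and high at 24 h, with 48 h levels that overlapped t0 at lower means. In the t0 libraries it was at 2.81, 3.82 and 3.32 CPM. At 1 h it was at 1.41, 2.16 and 1.38 CPM with PpPep1 and at 1.93, 2.18 and 1.17 CPM with PpPep2. All 6 libraries of 1 h lay below all t0 libraries. At 24 h it reached 7.54, 8.13 and 6.73 CPM with PpPep1 and 4.58, 6.23 and 8.50 CPM with PpPep2, and every one of these libraries lay above every library of the other times. The 48 h values were 2.22, 2.89 and 2.56 CPM with PpPep1 and 3.14, 1.99 and 2.67 CPM with PpPep2, which overlapped the t0 range.

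By mean, the DUF1442 gene ran from 1.65 ± 0.45 CPM (SD, n = 3) in PpPep1 1 h and 1.76 ± 0.53 in PpPep2 1 h through 2.56 ± 0.34 in PpPep1 48 h, 2.60 ± 0.58 in PpPep2 48 h and 3.32 ± 0.51 in t0 to 6.44 ± 1.97 in PpPep2 24 h and 7.47 ± 0.70 in PpPep1 24 h. Groups of the same time overlapped each other at all 3 times, and t0 overlapped PpPep2 48 h. The counts were between 43 and 415 per library. Counting alone would give a CV between 5.49% and 12.5%, and the observed CV was between 9.40% in PpPep1 24 h and 30.5% in PpPep2 24 h.

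**Figure D1:**
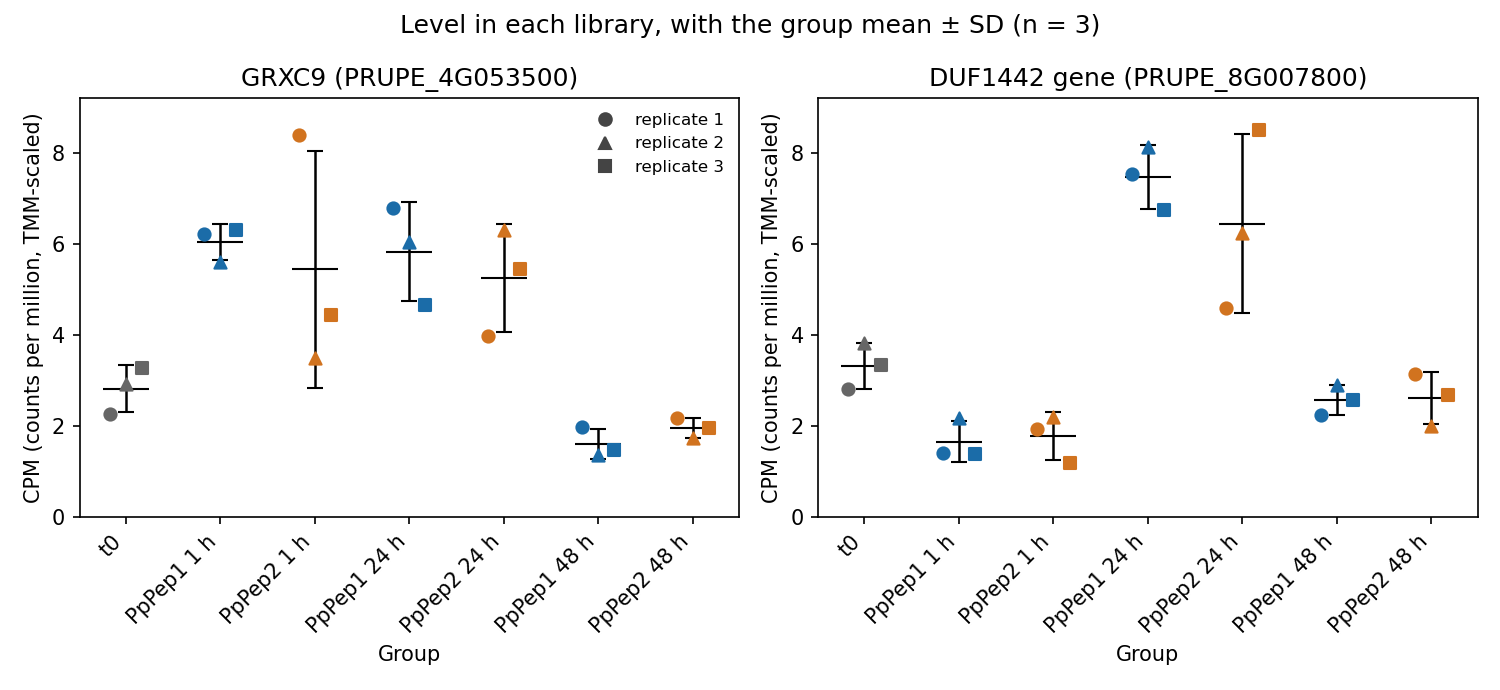
Level of GRXC9 (left) and the DUF1442 gene (right) in CPM in each of the 21 libraries, by group; symbols mark the replicate number, colours the treatment (grey t0, blue PpPep1, orange PpPep2), and bars the mean ± SD of 3 libraries. GRXC9 is above its t0 range at 1 h and 24 h, whereas the DUF1442 gene is below it at 1 h and above it at 24 h.

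One hour after PpPep1 the 2 genes moved in opposite directions, GRXC9 upwards and the DUF1442 gene downwards. Differentially expressed genes (DEG) had an adjusted p under 0.01 and a log2 fold change (log2FC) above 1 or below -1. GRXC9 rose 2.15-fold against t0 (log2FC 1.10, SE 0.26, edgeR adjusted p = 0.00396), and 5.44% of the genes tested were DEG with higher levels in this comparison. The DUF1442 gene fell 2.00-fold (log2FC -1.0, SE 0.25, edgeR adjusted p = 0.00597), and 0.463% of the genes tested were DEG with lower levels. Groups that do not overlap were far more frequent, 21.0% of genes for higher and 19.9% for lower levels. The t0 libraries are also those against which the 24 h levels were judged when the genes were chosen.

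Both calls at 1 h of PpPep1 were close to the thresholds. Leaving out t0 replicate 1 or 2 or PpPep1 1 h replicate 1 or 3 took GRXC9 over the threshold on p (edgeR adjusted p between 0.0111 and 0.0282, with log2FC between 0.96 and 1.14), and leaving out t0 replicate 2 or 3 or PpPep1 1 h replicate 1 or 3 did so for the DUF1442 gene (edgeR adjusted p between 0.0166 and 0.0383, log2FC between -1.0 and -0.87). With a term for the flowcell in a model of the t0, 1 h and 24 h libraries, edgeR's adjusted p was 0.108 for GRXC9 at a log2FC of 1.15 and 0.0789 for the DUF1442 gene at -1.24. The same libraries without that term gave edgeR adjusted p of 0.0135 and 0.0117. Within the flowcells of t0, the single PpPep1 library stood 1.14 log2 units above the t0 mean for GRXC9 and at -1.24 log2 units from it for the DUF1442 gene. With the flowcell term, the PpPep1 1 h value rests on this same library, because only PpPep1 1 h had libraries on both sides of the term. The 2 sets of values are therefore not separate checks. PpPep2 1 h replicate 1, run on both sets of flowcells, was counted there with the flowcell that held no t0 library. In a fit of only the 12 libraries whose column name matched, GRXC9 had a log2FC of 1.10 (edgeR adjusted p = 0.00015) and the DUF1442 gene of -1.0 (edgeR adjusted p = 0.0024). This fit compared the same t0 and PpPep1 1 h libraries as the main fit, and is not separate evidence. It left out PpPep2 1 h, where GRXC9 had a CV of 47.8%, and its p-values rest on another estimate of the spread.

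PpPep2 gave values on the same sides at 1 h, but neither gene was a DEG. For GRXC9 the log2FC against t0 was 0.96 (SE 0.26, 95% interval 0.41 to 1.5, edgeR adjusted p = 0.0106), with 6.18% of genes DEG with higher levels and 17.7% higher without overlap. For the DUF1442 gene it was -0.90 (SE 0.25, 95% interval -1.41 to -0.38, edgeR adjusted p = 0.0112), with 0.479% of genes DEG with lower levels and 16.8% lower without overlap. No PpPep2 1 h library was run on the flowcells of t0 alone, so treatment and flowcell cannot be fully told apart in this comparison. With only the compared groups in the fit, edgeR's adjusted p was 0.104 for GRXC9 and 0.0332 for the DUF1442 gene. Among the alternative settings, the highest adjusted p (edgeR or DESeq2) was 0.379 for GRXC9 and 0.230 for the DUF1442 gene. One library decided much of the GRXC9 value: without PpPep2 1 h replicate 1, the library run on both sets of flowcells, the log2FC was 0.51 (edgeR adjusted p = 0.108). Without PpPep2 1 h replicate 2, both genes passed the thresholds, GRXC9 at a log2FC of 1.2 (edgeR adjusted p = 0.000919) and the DUF1442 gene at -1.08 (edgeR adjusted p = 0.00792). With the columns read as headed, in which PpPep2 1 h holds the libraries read here as 24 h, the values were 0.90 for GRXC9 (edgeR adjusted p = 0.0421) and 0.95 for the DUF1442 gene (edgeR adjusted p = 0.0141), the latter with the opposite sign.

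The peptides were compared directly at 1 h, at doses that differ, so that peptide and dose cannot be told apart. GRXC9 differed by a log2FC of -0.15 for PpPep2 against PpPep1 (SE 0.25, 95% interval -0.67 to 0.37, edgeR adjusted p = 0.839), and the DUF1442 gene by 0.10 (SE 0.26, 95% interval -0.45 to 0.66, edgeR adjusted p = 0.901). Both pairs of groups overlapped, and the intervals leave room for a difference of 0.67 log2 units towards PpPep1 for GRXC9 and 0.66 towards PpPep2 for the DUF1442 gene. With the columns read as headed, the values were -0.21 for GRXC9 (edgeR adjusted p = 0.581) and 1.95 for the DUF1442 gene (edgeR adjusted p = 4.1e-06), the latter a call. Among the genes tested, 0.0161% were DEG with higher levels in PpPep2 and 0 with lower levels. Within the single flowcell that held replicates 2 and 3 of both groups, the log2 ratio of the means was -0.59 for GRXC9 and -0.08 for the DUF1442 gene.

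By 48 h GRXC9 had fallen from its 1 h level with both peptides. It fell by 1.92 log2 units with PpPep1, which is 3.78-fold (SE 0.28, edgeR adjusted p = 1.94e-05), and 7.24% of genes were DEG with lower levels. With PpPep2 it fell by 1.49 log2 units or 2.81-fold (SE 0.27, edgeR adjusted p = 0.000155), where 7.70% of genes were DEG with lower levels. All libraries of 48 h lay below all libraries of 1 h for each peptide, which held for 28.5% and 25.9% of genes. Both calls held when any 1 library was left out; the smallest size was -1.05, without PpPep2 1 h replicate 1. With the columns read as headed, the log2FC was -0.15 for PpPep1 (edgeR adjusted p = 0.839), because the columns headed PpPep1 48 h are then the libraries read here as PpPep2 1 h, and -1.43 for PpPep2 (edgeR adjusted p = 0.000805).

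The DUF1442 gene did not pass the test between 1 h and 48 h. Its log2FC was 0.63 with PpPep1 (SE 0.26, 95% interval 0.09 to 1.17, edgeR adjusted p = 0.0552) and 0.53 with PpPep2 (SE 0.25, 95% interval 0.01 to 1.06, edgeR adjusted p = 0.0896). The PpPep1 groups did not overlap, as for 29.6% of genes in that direction, whereas the PpPep2 groups did. With the columns read as headed, the log2FC was 0.10 with PpPep1 (edgeR adjusted p = 0.901) and -1.32 with PpPep2 (edgeR adjusted p = 0.000463), the latter a call in the opposite direction. For levels higher at 48 h than at 1 h, with PpPep1 3.47% of genes were DEG with higher levels, and with PpPep2 2.84%.

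Against t0, neither gene was a DEG at 48 h. GRXC9 had a log2FC of -0.82 with PpPep1 (SE 0.29, 95% interval -1.42 to -0.21, edgeR adjusted p = 0.0322) and of -0.54 with PpPep2 (SE 0.27, 95% interval -1.11 to 0.04, edgeR adjusted p = 0.152). Neither group overlapped t0, which held for 21.5% and 17.7% of genes with lower levels, and 2.35% and 1.18% of genes were DEG in that direction. The DUF1442 gene stood at -0.37 with PpPep1 (SE 0.24, 95% interval -0.88 to 0.13, edgeR adjusted p = 0.237). With PpPep2 it stood at -0.36 (SE 0.24, 95% interval -0.86 to 0.13, edgeR adjusted p = 0.265). Both groups overlapped t0, and the intervals leave room for lower levels. With the columns read as headed, PpPep1 48 h stood at 0.96 for GRXC9 (edgeR adjusted p = 0.0106) and -0.90 for the DUF1442 gene (edgeR adjusted p = 0.0112), while the PpPep2 48 h columns were the same in both readings. Between the peptides at 48 h, the log2FC was 0.28 for GRXC9 (SE 0.30, 95% interval -0.34 to 0.90, edgeR adjusted p = 0.796) and 0.01 for the DUF1442 gene (SE 0.25, 95% interval -0.51 to 0.52, edgeR adjusted p = 0.996). At this time 0.00538% of the genes tested were DEG with higher levels in PpPep2, and both pairs of groups overlapped.

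The 24 h levels, by which the genes were chosen, are given as a description. Against t0, GRXC9 stood at a log2FC of 1.05 (SE 0.26) with PpPep1 and 0.90 (SE 0.26) with PpPep2, and the DUF1442 gene at 1.17 (SE 0.23) and 0.95 (SE 0.23). Ranked by log2FC among the genes tested, GRXC9 was at place 248 from the top with PpPep1 and 526 with PpPep2, and the DUF1442 gene at 196 and 492. With PpPep1 0.393% and with PpPep2 1.02% of genes were DEG with higher levels at 24 h, and 16.0% and 12.6% were higher without overlap, as both genes were with both peptides. With the columns read as headed, the PpPep2 values were -0.82 for GRXC9 and -0.37 for the DUF1442 gene, so the high level at 24 h of PpPep2 rests on the reading of the columns, and that of PpPep1 does not.

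The 2 genes reached their 24 h levels from different levels at 1 h. From 1 h to 24 h GRXC9 had a log2FC of -0.05 (SE 0.25) for PpPep1 and -0.06 (SE 0.25) for PpPep2, with overlap in both cases. The DUF1442 gene stood 4.51-fold higher at 24 h than at 1 h with PpPep1 (log2FC 2.17, SE 0.24) and 3.61-fold higher with PpPep2 (log2FC 1.85, SE 0.24). These are places 50 and 121 from the top among the genes tested, and 22% and 20.7% of genes were likewise higher at 24 h than at 1 h without overlap. From 24 h to 48 h, both genes were lower by similar amounts, GRXC9 with a log2FC of -1.87 (SE 0.28) and -1.43 (SE 0.26) and the DUF1442 gene with -1.54 (SE 0.24) and -1.32 (SE 0.23) for PpPep1 and PpPep2. All 48 h libraries lay below all 24 h libraries for both genes, which held for 18.7% and 18.3% of genes.

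The 24 h libraries of PpPep2 shared their flowcells with t0 and those of PpPep1 did not. The log2 ratio of the means of PpPep2 24 h and t0, all within those flowcells, was 0.90 for GRXC9 and 0.96 for the DUF1442 gene. With a flowcell term, the log2FC of PpPep1 24 h against t0 was 1.12 for GRXC9 and 0.83 (SE 0.50) for the DUF1442 gene. The size of that term was set by the PpPep1 1 h libraries alone, of which only replicate 1 ran with t0. Between the peptides at 24 h, the values of PpPep2 against PpPep1 were -0.15 (SE 0.25) for GRXC9 and -0.22 (SE 0.22) for the DUF1442 gene, and both pairs of groups overlapped.

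**Figure D2:**
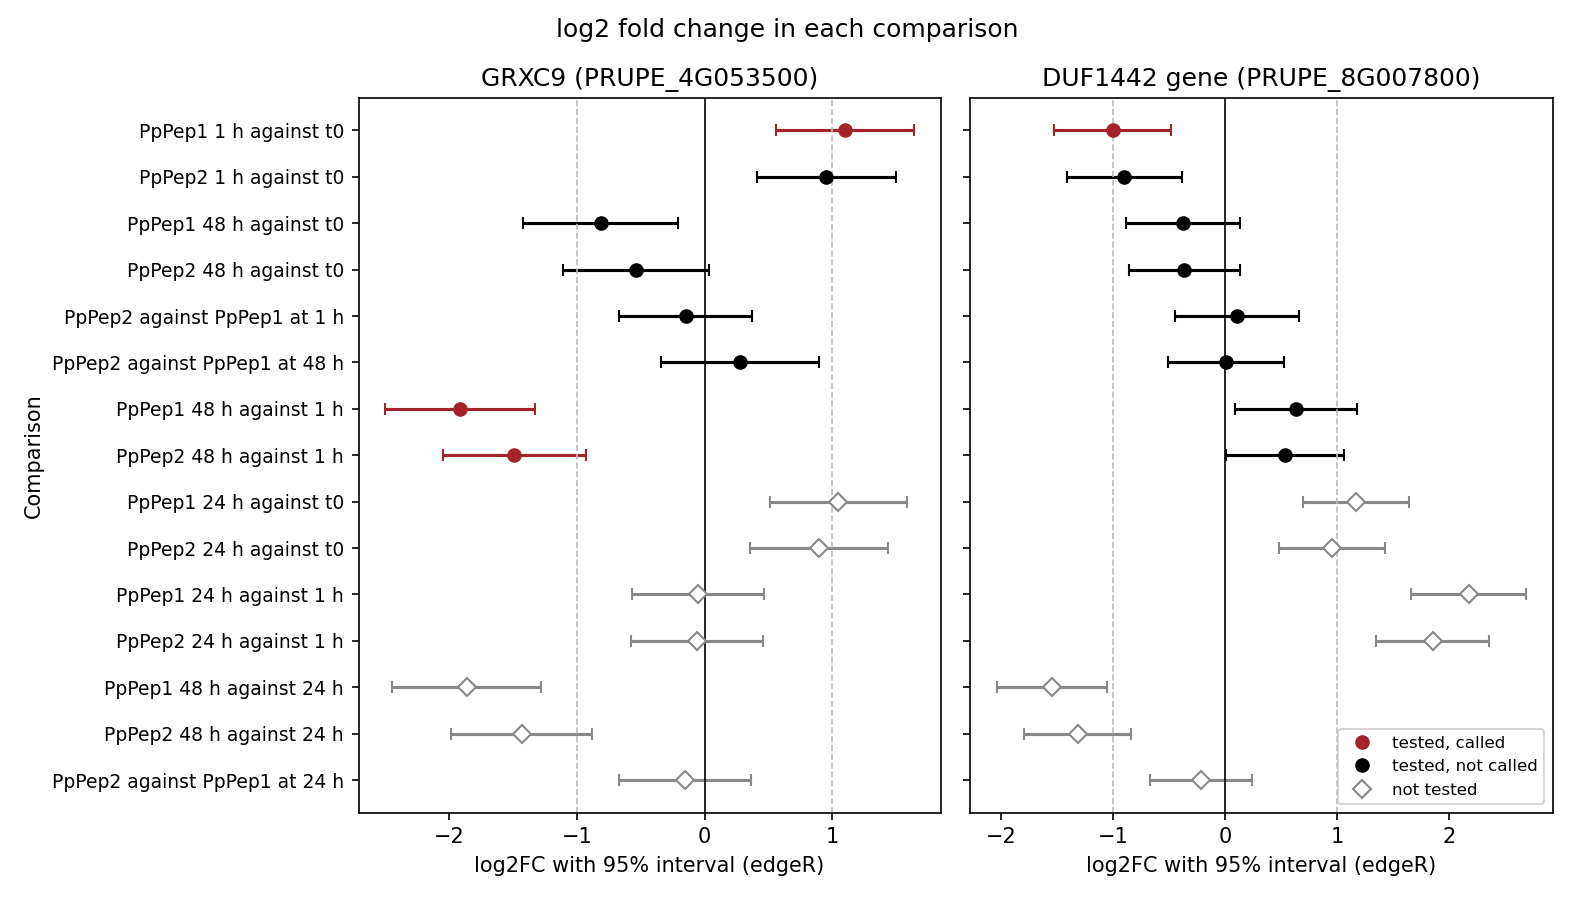
log2FC with its 95% interval (edgeR) for GRXC9 (left) and the DUF1442 gene (right) in 15 comparisons; red circles passed the thresholds, black circles did not, and open diamonds hold 24 h libraries and were not tested. Dashed lines mark a log2FC of -1 and 1. GRXC9 passes at PpPep1 1 h against t0 and in both comparisons of 48 h with 1 h, the DUF1442 gene only at PpPep1 1 h against t0.

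The difference in course was also described by a ratio within single libraries, which restates the 1 h values of the 2 genes. The ratio of GRXC9 to DUF1442 counts needs no scaling between libraries, though it depends on the lengths of both transcripts, so only its change between libraries is read. In the t0 libraries the ratio was 0.80, 0.76 and 0.99. At 1 h it was 4.42, 2.58 and 4.57 with PpPep1 and 4.34, 1.60 and 3.79 with PpPep2. All 6 libraries of 1 h, from 1.60 to 4.57, lay above the other 15, which ran from 0.47 to 1.01. With the columns read as headed, the ratios of PpPep2 1 h were 0.87, 1.01 and 0.64. Those of PpPep1 48 h were then 4.34, 1.60 and 3.79, so the separation for PpPep2 rests on the reading of the columns. How many other pairs of genes separate the libraries in this way was not computed.

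At 24 h both genes were high together, and the mean ratio was again within the t0 range, at 0.78 ± 0.11 (SD, n = 3) for PpPep1 and 0.84 ± 0.19 for PpPep2. Single libraries of 24 h ran from 0.64 to 1.01 and so lay on both sides of that range. At 48 h it was 0.64 ± 0.22 and 0.76 ± 0.10, against 0.85 ± 0.12 in t0. PpPep2 1 h replicate 1, which had the highest GRXC9 level, had a ratio of 4.34, within the range of the PpPep1 libraries, and PpPep2 1 h replicate 2 had the lowest ratio of the 1 h libraries. Over the means of the 7 groups, the log2 CPM of the 2 genes had a Pearson r of 0.20, as a description only.

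**Figure D3:**
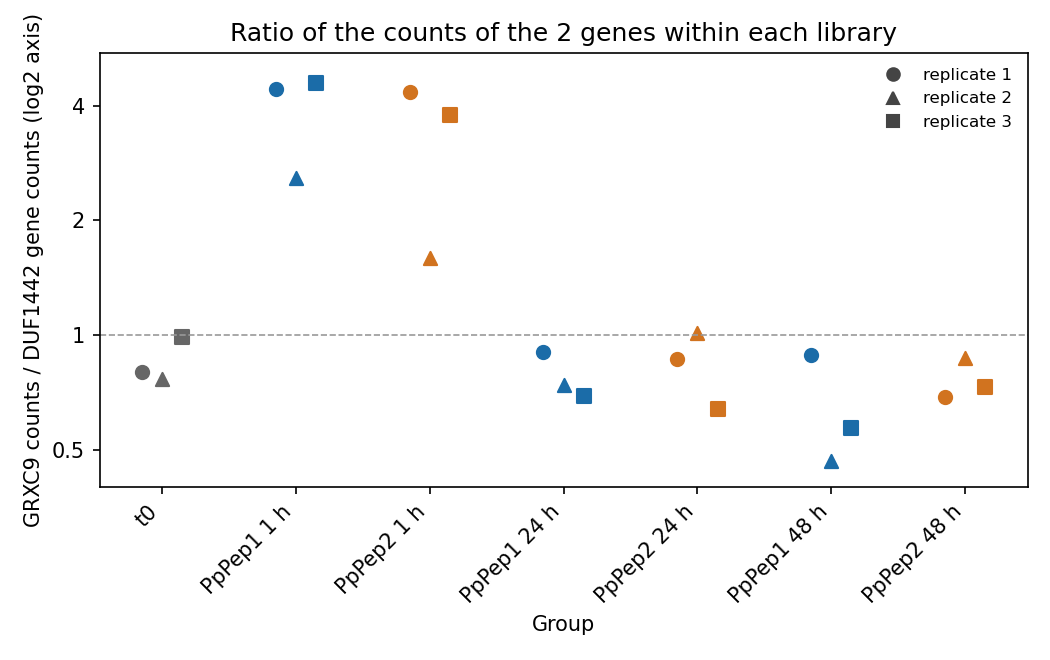
Counts of GRXC9 divided by counts of the DUF1442 gene in each of the 21 libraries, on a log2 axis, by group; symbols mark the replicate number, and the dashed line marks a ratio of 1. Under the reading of the columns used here, the 6 libraries of 1 h lie between 1.60 and 4.57 and the other 15 between 0.47 and 1.01.

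Other genes followed each course closely. Likeness was measured as Pearson's r over the 7 group means of log2 CPM, among 4274 genes whose means spanned at least 1 log2 unit; the means share libraries and r is given with no test. Closest to GRXC9 were PRUPE_6G202800 (r = 0.98), which went from 5.11 log2 CPM in t0 to 5.87 and 5.90 at 1 h, 5.90 and 5.56 at 24 h and 4.34 and 4.43 at 48 h for PpPep1 and PpPep2, and PRUPE_7G001600 (r = 0.97). Closest to the DUF1442 gene were PRUPE_8G126600 (r = 0.99) and PRUPE_6G068800 (r = 0.99). The latter was at 0.82 log2 CPM in t0, at -1.73 and -0.73 at 1 h, at 2.84 and 2.34 at 24 h and at -0.16 and -0.23 at 48 h. The count table gives none of these a name.

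Among the 137 nodes of the same network cluster with such a span, those closest to GRXC9 were PAT1, a Scarecrow-like transcription factor (r = 0.92), EXO70B1, an exocyst subunit (r = 0.90), and CHIT5A, a class V chitinase (r = 0.86). For the DUF1442 gene they were a gene listed as Cruciferin (DUF506) (r = 0.81), CDF2, a cyclic dof factor (r = 0.78), and WRKY44 (r = 0.48). The nodes closest to GRXC9 did not share the size of its 24 h rise. From t0 to 24 h of PpPep1 and PpPep2, PAT1 went from 5.05 to 5.23 and 5.18 log2 CPM. EXO70B1 went from 6.29 to 6.46 and 6.40, and CHIT5A from 6.78 to 6.67 and 6.84. At 48 h each was lower than in t0, PAT1 at 3.71 and 3.74. The network nodes were chosen by the study from these samples and from known links in Arabidopsis, so their direction is not independent evidence. Of the other 189 nodes tested, 107 were DEG with higher levels and 0 with lower levels 1 h after PpPep1, and 108 and 2 after PpPep2. Of all genes, 5.44% were higher and 0.463% lower in the first comparison and 6.18% and 0.479% in the second.

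Genes of 4 lists were set beside the pair: partners of GRXC9 listed in the network, the salicylic acid response, jasmonate and ethylene, and glutathione and thiol redox. They were taken from the same network nodes and, for ERF1a, PTI5, PR4 and TIFY9, from the genes the study measured by quantitative PCR, so their counts are not independent evidence of direction either. Of the 4 genes that the network links to GRXC9, 2 rose at 1 h of PpPep1: NPR2, a relative of the salicylic acid receptor NPR1 in Arabidopsis (log2FC 1.58, SE 0.11, edgeR adjusted p = 1.29e-09), and SAP8, a stress-associated zinc finger protein (log2FC 1.01, SE 0.12, edgeR adjusted p = 1.18e-06). With PpPep2 only NPR2 was called (log2FC 1.77, SE 0.11, edgeR adjusted p = 2.15e-10), while SAP8 stood at 0.87, and the difference between the peptides was not called for either gene. Of all genes, 5.44% and 6.18% were DEG with higher levels at 1 h of PpPep1 and PpPep2. The list's median log2FC was 0.73 and 0.69 at 1 h, where the median of all genes was -0.02 and -0.03. At 24 h the medians were 0.19 and 0.10. PAT1 fell by 48 h, with a log2FC against t0 of -1.34 (SE 0.10, edgeR adjusted p = 1.49e-08) for PpPep1 and -1.31 (SE 0.09, edgeR adjusted p = 4.91e-08) for PpPep2. In these comparisons 2.35% and 1.18% of all genes were DEG with lower levels.

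Of 8 genes of the salicylic acid response tested, NPR2 among them, 6 were DEG with higher levels after PpPep1 and 8 after PpPep2, with 0 lower, against 5.44% and 6.18% of all genes with higher levels, and the median log2FC was 1.90 for each peptide. WRKY53, a transcription factor of defence and senescence, had a log2FC of 5.12 (SE 0.24) with PpPep1 and 5.64 (SE 0.24) with PpPep2. SARD1, which drives salicylic acid synthesis in Arabidopsis, had values of 3.62 (SE 0.29) and 3.55 (SE 0.29). PCC1 stood at 2.16 and 2.03 and EDR4 at 2.27 and 2.73, also called with both peptides.

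At 24 h, where no list was tested, its median log2FC against t0 was 0.23 with PpPep1 and 0.34 with PpPep2; SARD1 had the highest values of the 8, 0.74 and 1.56, followed by WRKY53 at 0.52 and 1.32. At 48 h, 1 of the 8 was a DEG against t0 with each peptide, and it was SARD1 in both cases (log2FC 1.42 and 1.52). Of the 18586 genes tested, 404 with PpPep1 and 263 with PpPep2 were DEG with higher levels at 48 h. From 1 h to 48 h, 7 of the 8 fell with each peptide, with medians of -2.02 and -1.80, where 7.24% and 7.70% of all genes fell.

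In the jasmonate and ethylene list, 7 of 8 genes tested were DEG with higher levels at 1 h and 0 with lower levels for each peptide, against the same 5.44% and 6.18% of all genes, and medians of 2.23 and 2.25. PDF1.4, a defensin, did not pass the filter on low counts. The genes were picked by their names, and a part in jasmonate or ethylene synthesis or signalling was not checked for each. PTI5, an ethylene response factor, had a log2FC of 4.0 (SE 0.34) and 4.45 (SE 0.34), LOX1.5, a lipoxygenase, 2.76 (SE 0.26) and 3.47 (SE 0.27), and TIFY9, a jasmonate repressor of the JAZ family, 2.93 (SE 0.49) and 3.23 (SE 0.49). The exception was PR4, a chitin-binding defence protein, at -1.68 and -1.15 at 1 h, not called. It rose from 1 h to 48 h (log2FC 2.75, SE 0.53 for PpPep1 and 2.4, SE 0.51 for PpPep2), the only gene of the list to do so, while the other 7 tested fell with each peptide, as did 7.24% and 7.70% of all genes.

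The genes listed under glutathione and thiol redox were picked by their names, and a part in the chemistry of glutaredoxins was not checked for each. At 1 h, when 5.44% and 6.18% of all genes were DEG with higher levels, 1 of 5 tested was a DEG after PpPep1, GILP, a LITAF domain protein (log2FC 1.10, SE 0.09, edgeR adjusted p = 7.57e-09), and 0 after PpPep2, where GILP stood at 0.96. The list's medians were 0.24 and 0.37. At 48 h CXXS1, a thioredoxin-like protein, was lower than in t0 with PpPep1 (log2FC -2.58, SE 0.40) and PpPep2 (-1.84, SE 0.37), and GGT3, a gamma-glutamyl transferase, was higher with PpPep2 (log2FC 1.34, SE 0.21). With PpPep1 GGT3 stood at 0.83 and was not called. Of all genes, 2.35% and 1.18% were DEG with lower levels at 48 h of PpPep1 and PpPep2. Higher levels were called for 263 of the 18586 genes tested at 48 h of PpPep2.

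**Figure D4:**
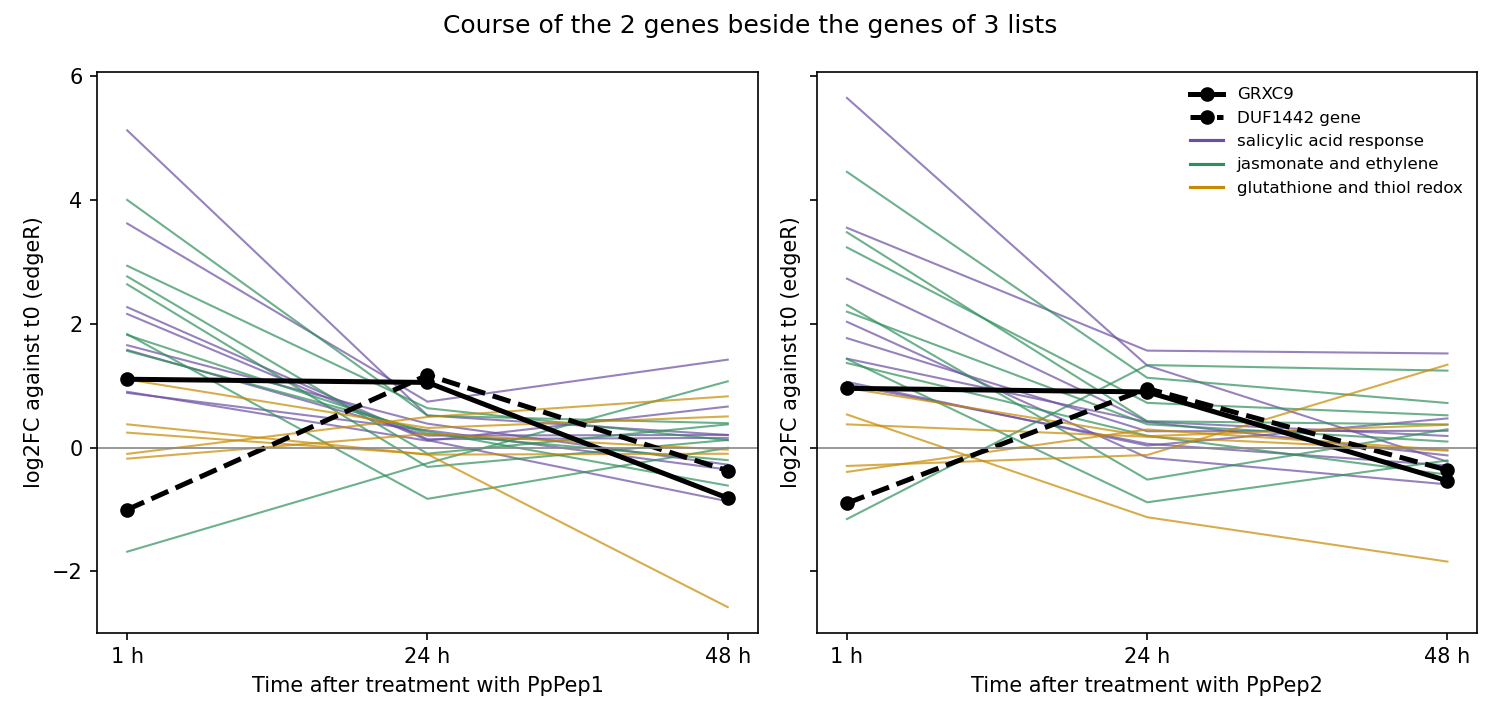
log2FC against t0 (edgeR) at 1, 24 and 48 h after PpPep1 (left) and PpPep2 (right) for GRXC9 (solid black), the DUF1442 gene (dashed black) and the tested genes of 3 lists (1 thin line a gene: purple salicylic acid response, green jasmonate and ethylene, yellow glutathione and thiol redox). The medians of the salicylic acid list are 1.90 at 1 h for each peptide and 0.23 and 0.34 at 24 h; the 24 h values of the 2 genes are those they were chosen by.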

How the data were processed

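Poly-A RNA of the 21 leaf samples was sequenced as stranded read pairs. The authors aligned the reads with STAR 2.5.3a to the NCBIv2 genome, quantified genes with RSEM 1.3.0 on the NCBIv2.38 annotation, tested with DESeq2 1.20.0, and deposited the table as whole counts per gene with no normalization. How RSEM's estimates became whole numbers and whether molecular identifiers were used are not given in the sources used here. Counting errors cover sampling of reads only.

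Analyses used R 4.3.3. Counts were filtered by filterByExpr, scaled by TMM and fitted jointly over all 7 groups in edgeR 4.0.16 (quasi-likelihood, robust), with p-values adjusted by Benjamini-Hochberg over 18586 genes; the thresholds for DEG were 0.01 on the adjusted p and 1 on the size of the log2FC. The SE is the log2FC divided by the square root of F. The p-values rest on the spread between replicates within groups, estimated for each gene jointly over all 7 groups. They do not measure the spread of the compared groups alone. For GRXC9 at 1 h against t0 the SE was 0.26 with both peptides, at CVs of 6.43% (PpPep1 1 h) and 47.8% (PpPep2 1 h). Log2 CPM used a prior count of 2. The fit was tested on simulated data with changes of 2 or 3 log2 units. These were larger than the changes of the 2 genes at 1 h against t0, so the recovery of changes of that smaller size was not tested. Members, lists and tests were chosen with earlier results of these data known. Named genes were the 2 members, up to 4 called genes a list with the largest log2FC, and those with the most similar course; beyond the 2 closest to each member, unnamed identifiers are not printed, and other list genes were named after their values were seen. Alternatives were DESeq2 1.42.0, RLE scaling, other filters (one of at least 1 CPM in 3 libraries), a replicate block, a flowcell term, the compared groups alone, 1 library left out, and the columns as headed. Of the table's identifiers, 0 matched the RefSeq table, so no sequence, position or list by description was used.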

Additional observations from a re-analysis of the deposited data

Results flagged for a closer look

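GRXC9 levels differed between 1 h and 48 h in each peptide series. Relative to the same t0 libraries, GRXC9 was higher at 1 h and lower at 48 h, and the test of the difference between these times gave a log2FC of -1.92 for PpPep1 and of -1.49 for PpPep2. In each case all 3 libraries of 48 h lay below t0 and all 3 of 1 h above it. Taken singly, such positions were frequent. At 1 h of PpPep1 and PpPep2, 21.0% and 17.7% of genes were higher than t0 without overlap. At 48 h, 21.5% and 17.7% were lower without overlap. The share of genes with both positions was not computed. The 48 h libraries were run on flowcells of their own, and the time cannot be told apart from that sequencing. Neither 48 h group was called against t0, and of the 1 h groups only PpPep1 was. For the DUF1442 gene, lower than t0 at 1 h, the same difference was not called.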

How the results depend on the processing

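The libraries held 33231519 to 59317510 counts, and levels of the 2 genes rest on 43 to 415 counts per library; the replicate CV was up to 47.8%, where counting alone would give 6.97%. No log2FC threshold, DESeq2, RLE scaling, no filter and a replicate block reversed none of the values for the 2 genes. For PpPep1 1 h against t0, the DUF1442 gene was not called with the filter of at least 1 CPM in 3 libraries (log2FC -0.986, edgeR adjusted p = 0.00681, short of the fold threshold) or with the compared groups alone (-0.989, edgeR adjusted p = 0.0104). With the flowcell term, GRXC9 was at 1.15 (edgeR adjusted p = 0.108) and the DUF1442 gene at -1.24 (0.0789); the same libraries without the term, an alternative chosen after seeing the data, gave 1.10 and -1.0. The size of that term was set by the PpPep1 1 h libraries alone, of which only replicate 1 ran with t0. It also moved the DUF1442 gene to 0.83 for PpPep1 24 h against t0, 2.19 for PpPep2 24 h against 1 h and 0.12 for PpPep2 against PpPep1 at 24 h. The cause was not tested.

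With the columns as headed, other libraries enter the comparisons. The DUF1442 gene was then at 0.95 for PpPep2 1 h against t0, 1.95 for PpPep2 against PpPep1 at 1 h (edgeR adjusted p = 4.1e-06), -1.32 for PpPep2 48 h against 1 h (edgeR adjusted p = 0.000463), -0.37 and -1.33 for PpPep2 24 h against t0 and 1 h, -2.07 and 0.0088 for PpPep1 and PpPep2 48 h against 24 h, and -1.54 between the peptides at 24 h. GRXC9 was at 0.96 for PpPep1 48 h against t0, -1.49 for PpPep2 against PpPep1 at 48 h, -0.15 for PpPep1 48 h against 1 h, -0.82 and -1.71 for PpPep2 24 h against t0 and 1 h, -0.095 and 0.28 for PpPep1 and PpPep2 48 h against 24 h, and -1.87 between the peptides at 24 h.

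Leaving out 1 library gave these ranges of log2FC. GRXC9 ran from 0.96 to 1.22 (PpPep1) and 0.51 to 1.2 (PpPep2) for 1 h against t0, -0.61 to 0.10 between the peptides at 1 h, -0.31 to 0.015 between them at 24 h, and -0.18 to 0.077 (PpPep1) and -0.30 to 0.39 (PpPep2) for 24 h against 1 h. The DUF1442 gene ran from -1.25 to -0.87 (PpPep1) and -1.08 to -0.69 (PpPep2) for 1 h against t0, -0.077 to 0.35 between the peptides at 1 h, -0.47 to -0.021 at 24 h and -0.13 to 0.17 at 48 h, 2.06 to 2.42 (PpPep1) and 1.60 to 2.05 (PpPep2) for 24 h against 1 h, 0.70 to 1.15 for PpPep2 24 h against t0 and -1.51 to -1.07 for PpPep2 48 h against 24 h.

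With the replicate number as a block, PpPep1 1 h against t0 gave 1.09 for GRXC9 (edgeR adjusted p = 0.00577) and -1.01 for the DUF1442 gene (edgeR adjusted p = 0.00703), and no call of the 2 genes changed. No pairing of the samples by number was clear, though these values cannot exclude it. Over 63 same-numbered pairs, deviations from the group means correlated between -0.245 and 0.251, with 12 pairs over 0.1. Over 126 pairs of different number they correlated between -0.295 and 0.331, with 17 pairs over 0.1. Of the 21 libraries, 9 correlated best with a library of their own number.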
